A study of Mus musculus with 16 samples.

Results

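Thymosin beta 4 (Tβ4) was compared with its vehicle, DPBS, in primary cultured neurons from the brains of C57BL/6 mice at postnatal day 0. The comparison takes 4 libraries of cultures given Tβ4 and 4 libraries of control cultures, 8 of the 16 libraries in the series, and covers every gene in the table. The other 8 libraries, from cultures given thymosin beta 10 (Tβ10) or the peptide NP24, enter only where Tβ4 is set directly against them. All groups share genotype, age and culture type. The series' title ties the peptides to the subcommissural organ, a secretory gland of the brain. Peptide dose, time of exposure and day of culture are not given in the sources used here. The labels do not say whether the numbered libraries came from separate cultures or animals, so p-values measure the spread between these libraries, which may be technical.

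Tβ4 is a small peptide that binds actin monomers and so keeps a reserve of unpolymerised actin in most cells. Outside the cell it has been studied for effects on cell migration, wound repair and survival, in part through integrin-linked kinase. Monomeric actin also holds back the MRTF coactivators of serum response factor (SRF), which is why actin regulators, adhesion genes and SRF targets were among the gene lists examined.

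The promoter windows of 3 genes described below are shown here, each as the 250 bases before the RefSeq start site on GRCm38.p6, written in the gene's own direction. They are Txnip, the gene with the smallest p-value, and Nr4a3 and Npas4, transcription factor genes that neurons switch on with activity. Capitals mark matches to 2 motifs, each searched on both strands. The first is the carbohydrate response element, a pair of CACGNG letters 5 bases apart, bound by glucose-sensing factors and present in 15 of 32851 promoter windows (0.0457%). The second is the core of the cAMP response element, TGACGT, present in 2125 of 32851 windows (6.47%).
Txnip, chr3:96557707-96557956, plus strand: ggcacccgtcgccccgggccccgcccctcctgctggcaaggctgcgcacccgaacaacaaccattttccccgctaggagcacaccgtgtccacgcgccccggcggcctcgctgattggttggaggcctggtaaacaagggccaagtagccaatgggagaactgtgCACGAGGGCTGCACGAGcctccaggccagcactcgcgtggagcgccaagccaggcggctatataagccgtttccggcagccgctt
Nr4a3, chr4:48045055-48045304, plus strand: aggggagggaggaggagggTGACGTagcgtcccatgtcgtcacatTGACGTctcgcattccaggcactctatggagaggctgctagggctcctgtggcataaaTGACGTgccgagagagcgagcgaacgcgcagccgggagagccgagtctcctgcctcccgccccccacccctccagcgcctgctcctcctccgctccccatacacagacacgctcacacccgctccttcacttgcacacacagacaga
Npas4, chr19:4989972-4990221, minus strand: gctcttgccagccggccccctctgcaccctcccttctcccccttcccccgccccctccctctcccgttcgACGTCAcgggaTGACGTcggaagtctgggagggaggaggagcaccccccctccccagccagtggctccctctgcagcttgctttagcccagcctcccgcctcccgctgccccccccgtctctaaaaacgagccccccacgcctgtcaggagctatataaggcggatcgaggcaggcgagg
The Txnip window holds 1 match, starting 85 bases before the start site. The Nr4a3 window holds 3 matches and the Npas4 window 2, the first of these on the opposite strand. A match describes the letters of the window and says nothing of which factors were bound in these cultures.

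The 8 libraries held 18097363 to 32631337 reads in genes, and 2 of the Tβ4 libraries stood apart from the rest in different ways. Tβ4 library 1 had at least 1 read in 38072 genes, against 29761 to 32652 in the other 7, and mitochondrial rRNA took 24.3% of its reads, against 8.25% to 15.5%. It also detected 1226 of 1531 olfactory and vomeronasal receptor genes, against 213 to 382 in the other 7. Of 13710 genes considered, 1236 were more than 2-fold higher in Tβ4 library 1 than the mean of the other 3 Tβ4 libraries. Another 63 were more than 2-fold below it. By ratio, Trp63, a gene of epithelium, led the higher ones (202 normalized counts, against a mean of 1.08), followed by F5 (81.7 against 0.39). Fshr, a gene of gonad, was also among the 8 furthest above (241 against 3.95). In Tβ4 library 2 the genes that span 100 kb or more (2565 genes) lay at a median of 0.50 above the control mean on a log2 scale, against -0.17 to 0.06 in the other 7 libraries, and the 8544 genes under 10 kb at -0.20. Reads appear to have been counted over whole genes, introns included, and without regard to strand, since all 593 genes tested that lie inside an intron of a gene on the other strand had no more reads than that outer gene in all 16 libraries. Genes that overlap therefore share reads, and an overlapping gene is named below where its own reads come to more than 10% of those of the gene described. The defining neuronal genes were high in both groups, with Map2, a dendritic microtubule protein, at 27432 to 31205 normalized counts in the controls and 25429 to 35936 with Tβ4, and Rbfox3, a neuronal nuclear protein, at 4000 to 5374 and 3123 to 7216.

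**Figure D1:**
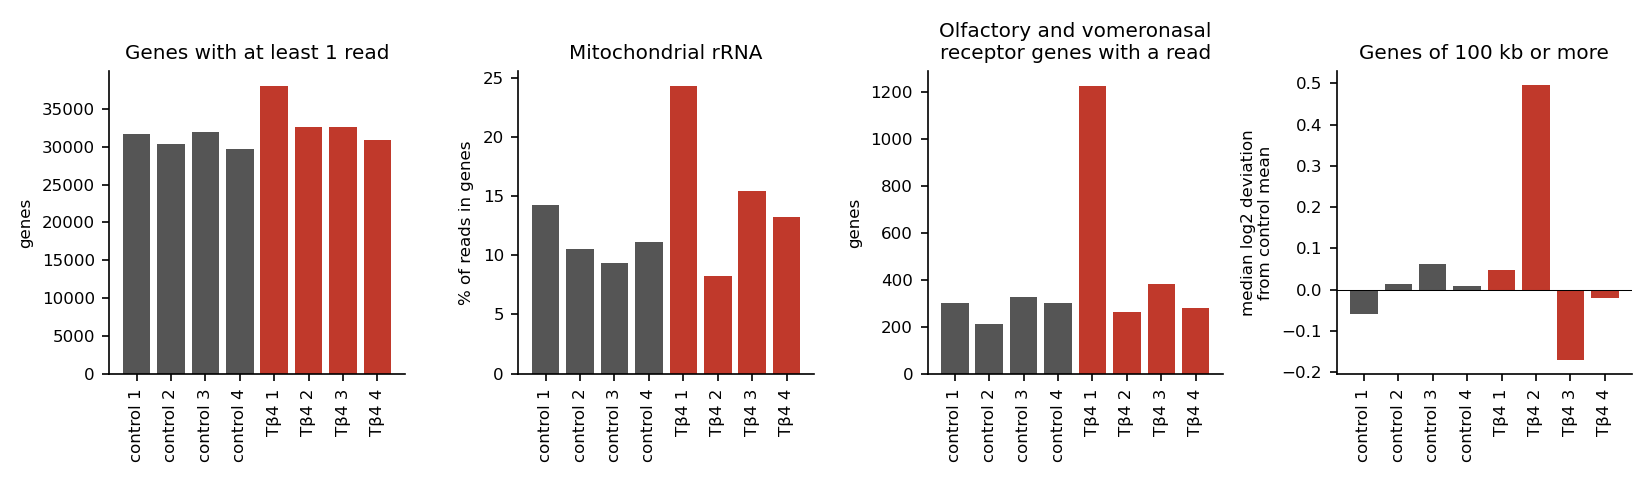
Library measures for the 4 control (grey) and 4 Tβ4 (red) libraries: genes with a read, mitochondrial rRNA as a percentage of reads in genes, olfactory and vomeronasal receptor genes with a read, and the median log2 deviation from the control mean of genes spanning 100 kb or more. Tβ4 library 1 is highest in the first 3 panels (38072 genes, 24.3% and 1226 genes) and Tβ4 library 2 in the last (0.50).

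No gene passed the test between Tβ4 and control. With all 8 libraries limma called 0 of 22205 genes (0%) at an adjusted p under 0.05, and 1568 (7.06%) had an unadjusted p under 0.05, of which 897 were higher (4.04%) and 671 lower (3.02%) with Tβ4. Without Tβ4 library 1 it called 0 of 22648 genes, with 1050 (4.64%) at an unadjusted p under 0.05. edgeR on the recovered reads also called 0 in both, with 1632 (7.35%) and 1009 (4.46%) genes at an unadjusted p under 0.05. Every value of the 4 Tβ4 libraries lay outside the range of the 4 controls for 984 genes (4.43%), 502 above (2.26%) and 482 below (2.17%). Without Tβ4 library 1 that was so for 1433 genes (6.33%), 731 above (3.23%) and 702 below (3.1%).

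DESeq2 and the choice of libraries gave other counts. DESeq2 on the recovered reads of the 8 libraries called 82 genes (0.369%), 59 higher (0.266%) and 23 lower (0.104%). Of these, 4 were still called without Tβ4 library 1, the only calls in that fit (0.0177%): Txnip, its overlapping neighbour Gm15441, Ccn2 and Rgs5. The authors' deposited table holds 163 genes at an adjusted p under 0.05, 123 higher and 40 lower. Tβ4 library 1 was the most extreme of the 8 libraries in 105 of those 163 and the highest in 86, and 16 of them remained called by DESeq2 over 15 libraries without it. Leaving out Tβ4 library 2 acted the other way: limma then called 354 of 21665 genes (1.63%), 135 higher (0.623%) and 219 lower (1.01%), while leaving out any other single library of the 8 gave 0. With both Tβ4 libraries 1 and 2 out, 177 genes were called, 41 higher and 136 lower. Of the 219 genes called lower without Tβ4 library 2, that library itself lay at or above the control mean for 168, and of the 135 called higher it lay at or below the control mean for 41.

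**Figure D2:**
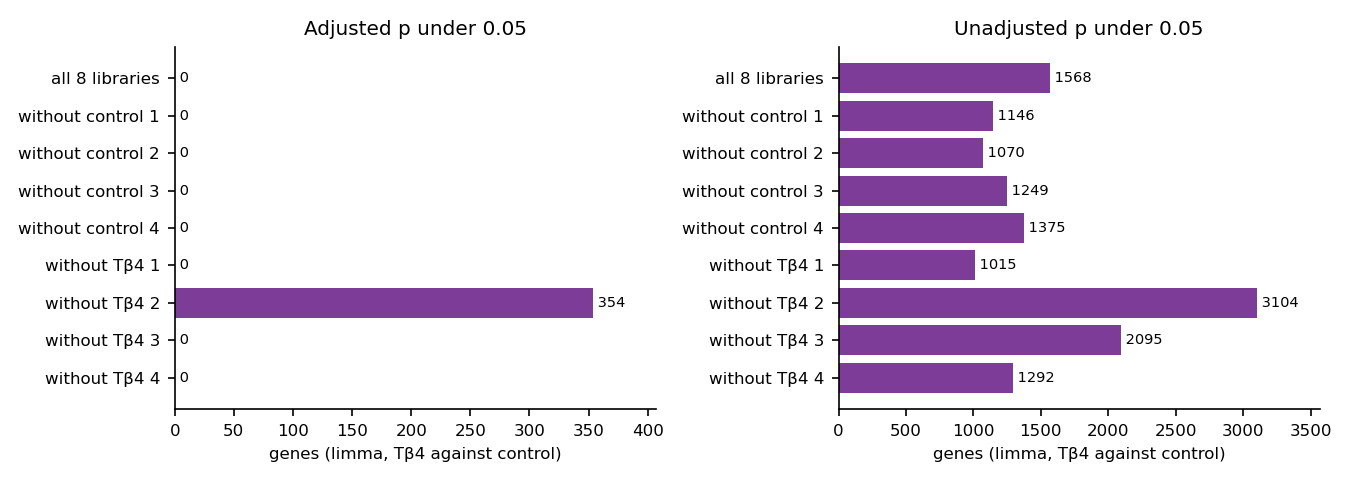
Number of genes called by limma between Tβ4 and control at an adjusted p under 0.05 (left) and at an unadjusted p under 0.05 (right), with all 8 libraries and with each library left out in turn. Only the fit without Tβ4 library 2 gave calls (354), and it also had the most genes at an unadjusted p under 0.05 (3104, or 14.3%).

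Among genes higher with Tβ4, Txnip had the smallest p-value. Txnip (chr3:96557957-96561883 on GRCm38) encodes an arrestin-domain protein that binds thioredoxin and curbs glucose uptake. Its normalized counts were 164, 140, 235 and 183 in the controls and 473, 357, 565 and 550 with Tβ4. The lowest Tβ4 library lay well above the highest control. That was 2.69 times the control level on the log2(value + 1) scale used throughout for folds, a log2 difference of 1.43 with a 95% interval of 0.99 to 1.87, yet the limma adjusted p was 0.124. Without Tβ4 library 1 the difference was again 1.43, and without Tβ4 library 2 it was 1.57 with an adjusted p of 0.00113. DESeq2 gave Txnip an adjusted p of 2.77e-06 with all 8 libraries and 0.00021 without Tβ4 library 1. Txnip lies wholly inside the span of the antisense gene Gm15441, whose reads equal 103% of those of Txnip, so these reads cannot be assigned to one strand. Arrdc4, a related arrestin-domain gene named after its values were seen, was at 276 to 378 in the controls and 313 to 590 with Tβ4, and these ranges overlapped.

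Ccn2 and Rgs5 followed. Ccn2 (chr10:24595442-24598683) encodes connective tissue growth factor, a secreted matrix protein and a target of SRF and YAP. Its normalized counts were 69.7, 49.6, 71.7 and 79.1 in the controls and 408, 128, 248 and 243 with Tβ4. All 4 Tβ4 libraries lay above the controls, library 1 highest and library 2 lowest. The log2 difference was 1.82 (95% interval 1.13 to 2.50, limma adjusted p 0.375), and 1.55 without Tβ4 library 1. The antisense gene Gm15270 covers 51.4% of its span and holds reads equal to 73.0% of those of Ccn2. Rgs5, a regulator of G-protein signalling that marks pericytes, had 185, 64.6, 132 and 150 normalized counts in the controls and 478, 242, 539 and 485 with Tβ4. Its groups did not overlap either, and its log2 difference was 1.74 (1.05 to 2.43), or 1.67 without Tβ4 library 1. Without Tβ4 library 2 limma called both genes, with adjusted p 0.0016 for Ccn2 and 0.00218 for Rgs5.

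The remaining leading genes of this direction had smaller differences and tighter groups. Daam2, a formin that organises actin in Wnt signalling, was at 209 to 309 normalized counts in the controls and 401 to 523 with Tβ4, a log2 difference of 0.88 (0.51 to 1.24). Mki67, the proliferation antigen Ki-67, was at 1566, 2053, 1838 and 2224 in the controls and 3036, 2581, 3244 and 3161 with Tβ4, or 1.57 times the control level. The groups of both genes did not overlap, and leaving out Tβ4 library 1 left the differences at 0.86 for Daam2 and 0.65 for Mki67.

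The leading genes lower with Tβ4 lay between 0.50 (Ybx2) and 0.67 (Plekhn1) of the control level. Kifc2, a kinesin of axons and dendrites, had 846, 946, 865 and 736 normalized counts in the controls and 488, 469, 568 and 496 with Tβ4. The highest Tβ4 library lay below the lowest control. The log2 difference was -0.74 (95% interval -1.03 to -0.46, limma adjusted p 0.375) and -0.73 without Tβ4 library 1. Cyhr1, on the other strand, overlaps 3.12% of the span of Kifc2. Plekhn1, a pleckstrin-homology-domain protein, was at 1141, 1183, 1095 and 1201 in the controls and at 730, 776, 751 and 815 with Tβ4; these groups did not overlap. Its log2 difference was -0.59 (-0.83 to -0.35).

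Eps8l1, related to the actin-capping protein Eps8, was at 375 to 458 normalized counts in the controls and 174 to 261 with Tβ4, a log2 difference of -0.95, though its antisense neighbour Gm15494 holds reads equal to 91.2% of its own. Ybx2, an RNA-binding Y-box protein best known from germ cells, was at 313 to 391 and 129 to 227, a log2 difference of -1.01. Neither gene's groups overlapped. Dennd6b (-0.73), Rnf112, a RING-finger GTPase of neurons (-0.77), and C1qtnf4, a secreted C1q-domain protein (-0.75), also had all 4 Tβ4 libraries below every control. These 5 genes had limma adjusted p-values of 0.409 to 0.442 with 8 libraries, and each was called without Tβ4 library 2, with adjusted p-values of 0.00596 to 0.0457.

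**Figure D3:**
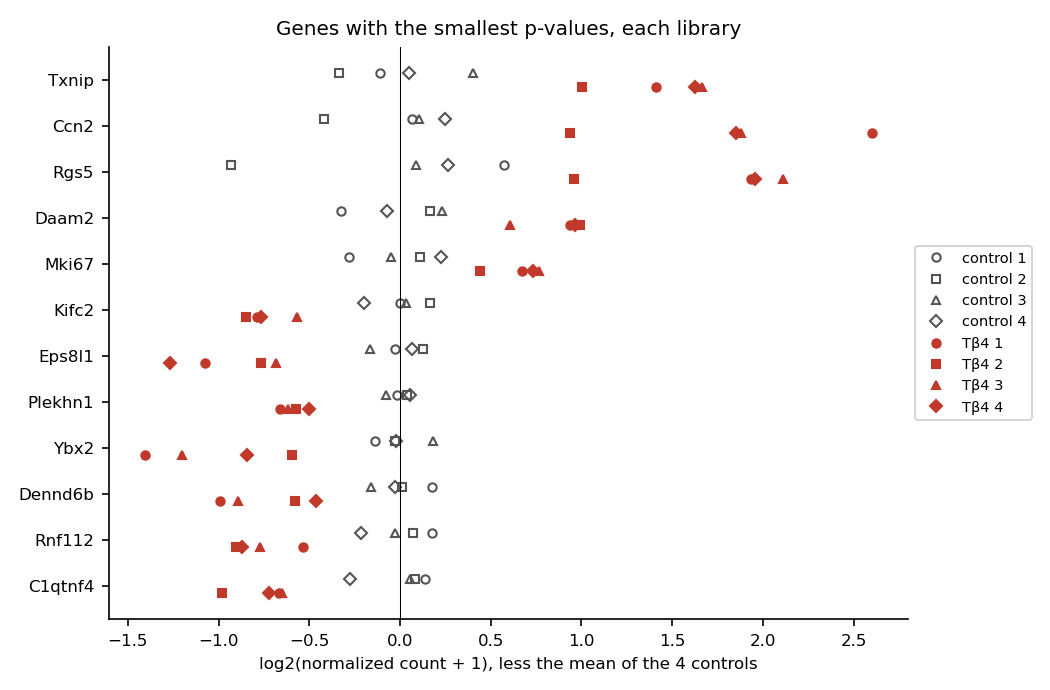
log2(normalized count + 1) in each library less the mean of the 4 controls, for 12 of the genes with the smallest p-values; open grey marks are controls, filled red marks Tβ4, and the shape gives the library number. In each gene the 4 Tβ4 libraries lie on one side of all 4 controls, while Tβ4 library 1 (circle) and library 2 (square) differ most in Ccn2 (408 and 128 normalized counts).

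The genes for beta-thymosins themselves gave no difference that these libraries could resolve. Tmsb4x, which encodes Tβ4, was at 3526, 2737, 3145 and 2617 normalized counts in the controls and 4446, 1740, 4384 and 3059 with Tβ4. The Tβ4 libraries lay on both sides of the controls, with library 2 lowest of the 8. The log2 difference was 0.10 (95% interval -0.43 to 0.63), and -0.06 without Tβ4 library 1. Tmsb10, the gene for Tβ10, was at 2450 to 2724 in the controls and 3372, 1133, 3292 and 2166 with Tβ4, a log2 difference of -0.18 (-0.75 to 0.40). Of the 30 tested regulators of actin monomers and filaments, 14 were higher and 16 lower, with a median log2 difference of -0.02 (-0.06 without Tβ4 library 1), against a median of -0.003 and 49.4% of genes positive over all genes tested. The groups overlapped for all 30. Cap2, which recycles actin monomers, had the smallest p in the list without Tβ4 library 1, at 303 to 563 normalized counts in the controls and 550 to 793 with Tβ4, ranges that overlap, and Gm47523 holds reads equal to 14.5% of its own.

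Targets of SRF and MRTF were found on both sides of the control level. Of 19 tested, 12 were higher and 7 lower with Tβ4, with a median of 0.14 (0.11 without Tβ4 library 1), and the groups did not overlap for 2 higher and 1 lower, against 4.43% of all genes tested. Ccn2 and Myl9, a myosin light chain of smooth muscle, were the 2 higher. Myl9 was at 20.9 to 41.9 normalized counts in the controls and 102, 51.1, 53.8 and 49.7 with Tβ4, library 1 standing far above the other 3. Ccn1, a matrix protein related to Ccn2, was at 125 to 220 and 374, 176, 327 and 284, so that Tβ4 library 2 lay inside the control range. Flna, the actin cross-linker filamin A, was the lower one, at 7417, 7950, 7031 and 7644 in the controls and 5124, 5715, 5101 and 5999 with Tβ4. Its groups did not overlap, and its log2 difference was -0.46 (95% interval -0.72 to -0.19), or -0.42 without Tβ4 library 1.

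Among 20 tested genes of focal adhesion and integrin-linked kinase signalling, 11 were higher, with a median of 0.03 (0.07 without Tβ4 library 1). Scaling to library size gave -0.05, and moved the median of all genes tested from -0.003 to -0.09. Itga5, the alpha subunit of the fibronectin receptor, was at 88.6, 99.2, 81.4 and 84.3 normalized counts in the controls and 228, 165, 148 and 170 with Tβ4. These groups did not overlap, and the log2 difference was 0.99 (95% interval 0.50 to 1.47), or 0.86 without Tβ4 library 1. Itgav, another alpha integrin, was at 592 to 971 and 836 to 1078, with control library 4 inside the Tβ4 range, and Gm13684 holds reads equal to 12.3% of its own.

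Immediate early and activity-regulated genes were mostly higher with Tβ4. limma called none of the 22 tested. DESeq2 with all 8 libraries called 1 higher, Nr4a3 (adjusted p 0.0202, and 0.0917 without Tβ4 library 1), against 0.266% of all genes. That fit called members of other lists too, among them 3 of 11 fibroblast and meningeal, 2 of 15 astrocyte and 2 of 23 cell cycle genes, all higher. Of the 22 activity genes, 21 were higher, with a median of 0.39 (0.32 without Tβ4 library 1, where 16 of 22 were higher). The groups did not overlap for 3, all higher, against 2.26% of all genes tested. Nr4a3, an orphan nuclear receptor whose promoter is shown above, had 2652, 2572, 3600 and 3738 normalized counts in the controls and 4870, 7038, 4973 and 4685 with Tβ4. Every Tβ4 library lay above every control, library 2 far above the other 3. The log2 difference was 0.78 (95% interval 0.42 to 1.14), and 0.82 without Tβ4 library 1. Bdnf, the neurotrophin, was at 149, 101, 213 and 234 in the controls and 257, 455, 323 and 259 with Tβ4, again with library 2 highest and no overlap, a log2 difference of 0.92 (0.33 to 1.51). Npas4, an activity-dependent transcription factor, was at 699, 531, 894 and 656 and at 1362, 886, 1092 and 1004, where Tβ4 library 2 lay just below the highest control. Its log2 difference was 0.65 (0.28 to 1.02), or 0.54 without Tβ4 library 1. Fosl2, an AP-1 subunit, was at 589 to 895 and 885 to 1021, overlapping only through Tβ4 library 1. The mean log2 deviation of the list was 0.78, 0.09, 0.61 and 0.25 in Tβ4 libraries 1 to 4, against -0.15 to 0.07 in the controls.

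Of 18 tested genes of neurotrophin and growth factor signalling, 15 were higher with Tβ4, with a median of 0.49 (0.33 without Tβ4 library 1). The list's mean deviation was 0.38 to 0.76 in the Tβ4 libraries and -0.13 to 0.10 in the controls, which did not overlap. Its summed level did overlap, at 30097 to 34707 normalized counts in the controls and 29331, 49538, 30004 and 33721 with Tβ4. Fgfr1, a receptor for fibroblast growth factors, was at 1346 to 1683 normalized counts in the controls and 1784 to 2011 with Tβ4, without overlap. Igf1, the insulin-like growth factor, was at 299, 285, 427 and 373 and at 549, 561, 659 and 355, and its binding protein gene Igfbp2 at 502 to 653 and 607 to 1063. In both of these, 1 Tβ4 library lay inside the control range.

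Astrocyte markers were higher in 3 of the 4 Tβ4 libraries. In cultures analysed in bulk, a larger share of cells of a type and more RNA per cell of that type cannot be told apart. Of 15 tested markers 13 were higher, with a median of 0.47 (0.40 without Tβ4 library 1), and the groups did not overlap for 3, all higher, against 2.26% of all genes tested. The list's mean deviation was 0.56, -0.05, 0.53 and 0.57 in Tβ4 libraries 1 to 4, against -0.13 to 0.17 in the controls. Aqp4, the water channel of astrocyte endfeet, named after its values were seen, was at 59.1, 167, 160 and 115 normalized counts in the controls and 259, 210, 376 and 406 with Tβ4. No Tβ4 library reached down to the controls, and the log2 difference was 1.37 (95% interval 0.67 to 2.07). Slc1a2, the main glutamate transporter of astrocytes, was at 2259, 2527, 2704 and 2738 and at 3703, 3581, 3706 and 3303. These groups were apart, with a log2 difference of 0.49 (0.24 to 0.73), or 0.47 without Tβ4 library 1. Slc1a3, the second glial glutamate transporter, was at 3302 to 4166 and 4560 to 5334, also without overlap. Mlc1, a membrane protein of endfeet, was at 301 to 460 and 434 to 609, with Tβ4 library 2 inside the control range. Without Tβ4 library 2, limma called 9 of the 15, all higher, against 0.623% of all genes. Leaving out the library at control level favours such calls, so the count adds no separate support.

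Cell cycle genes were likewise higher in Tβ4 libraries 1, 3 and 4. Of 23 tested, 22 were higher with Tβ4, with a median of 0.48 (0.36 without Tβ4 library 1), and the mean deviation was 0.62, 0.03, 0.56 and 0.54 in Tβ4 libraries 1 to 4 against -0.04 to 0.03 in the controls. The list's mean was thus close to control in library 2, although that library lay above every control for Mki67 and Mcm5. Top2a, the topoisomerase of dividing cells, was at 930, 1142, 1148 and 1322 normalized counts in the controls and 2008, 1224, 2168 and 1945 with Tβ4, library 2 within the control range. Mcm5, a subunit of the replicative helicase, was at 152 to 198 and 226 to 368, without overlap, and Mcm3, another subunit, at 156 to 231 and 193 to 357. Without Tβ4 library 2, limma called 7 of the 23, all higher, against 0.623% of all genes. As for the astrocyte list, that count leaves out the library nearest control and adds no separate support. Markers of radial glia and progenitors had a median of 0.31 (0.21 without Tβ4 library 1), with 12 of 15 higher and a mean deviation of -0.24 in Tβ4 library 2.

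By the mean deviation of each list, markers of fibroblasts and microglia were highest in Tβ4 library 1. They were higher to a smaller extent in libraries 3 and 4, for microglia only just above the highest control. Those of the endothelial and pericyte list were higher in all 4, in library 3 only just above the highest control (0.38 against 0.30). Of 11 tested fibroblast and meningeal markers 9 were higher, with a median of 0.87 that was 0.44 without Tβ4 library 1, and the mean deviation was 1.44, -0.02, 0.54 and 0.84 in Tβ4 libraries 1 to 4. The summed level of the whole list was 6332 to 7362 normalized counts in the controls and 10209, 5216, 8856 and 7903 with Tβ4, and its members Dcn and Lum were near 0, with Lum at 0 in every control and Dcn at 0 to 5.64 there, and both at 17.1 in Tβ4 library 1. Bgn, the matrix proteoglycan biglycan, was at 201, 125, 133 and 156 in the controls and 969, 210, 425 and 396 with Tβ4. Its groups did not overlap, though library 2 came close, and the log2 difference was 1.5 (95% interval 0.74 to 2.26), or 1.11 without Tβ4 library 1. Col3a1, a fibrillar collagen, was at 131, 56.2, 72.5 and 118 and at 467, 116, 266 and 218, with library 2 inside the control range. Col1a1 was at 58.0 to 119 and at 432, 94.2, 185 and 334, and Fn1, fibronectin, at 1298 to 1721 and 1777 to 2267. Without Tβ4 library 2, limma called 5 of the 11, all higher, against 0.623% of all genes. This count too leaves out the library at control level and adds no separate support. The part of other cell types in these values was not tested.

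Endothelial and pericyte markers were highest in Tβ4 library 1. The 8 tested, of 14 in the list, had a median of 0.72 (0.44 without Tβ4 library 1). Their mean deviation was 1.83 in Tβ4 library 1, 0.38 to 0.57 in the other Tβ4 libraries and -0.38 to 0.30 in the controls. The summed level of the list was 990 to 1522 normalized counts in the controls and 2991, 1502, 1760 and 2172 with Tβ4. Pdgfrb, the pericyte receptor for platelet-derived growth factor, was at 201 to 262 in the controls and 618, 293, 268 and 531 with Tβ4, without overlap. Notch3, of mural cells, was at 214 to 322 and 311 to 471, with overlap, and Gm17276 holds reads equal to 46.3% of its own. Cldn5, the endothelial tight-junction gene, was at 0 to 3.41 normalized counts over the 8 libraries, and Kcnj8, of pericytes, at 0 in 3 controls and 7.32 in Tβ4 library 1. Of 15 tested microglia and macrophage markers 13 were higher, with a median of 0.71 (0.38 without Tβ4 library 1). Their mean deviation was 1.33, 0.02, 0.53 and 0.54 in Tβ4 libraries 1 to 4, against -0.21 to 0.41 in the controls. The list's summed level was 2200 to 2717 normalized counts in the controls and 3579, 2375, 2735 and 2726 with Tβ4. Only library 1 lay clearly above the controls. C1qc, a complement subunit, was at 23.6, 8.43, 28.2 and 24.3 in the controls and 117, 28.4, 77.9 and 61.5 with Tβ4, barely apart. Tmem119, the defining microglial gene, was at 0 to 10.3 normalized counts over the 8 libraries.

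Oligodendrocyte lineage markers did not follow, with 5 of 16 higher and a median of -0.08. Cldn11, the tight-junction protein of myelin, was at 174, 177, 125 and 224 normalized counts in the controls and 89.0, 70.4, 117 and 89.9 with Tβ4. These groups did not overlap, and the log2 difference was -0.92 (95% interval -1.46 to -0.37). The haemoglobin gene Hbb-bs was at 0 to 19.5 normalized counts over the 8 libraries, and Ttr, the thyroxine carrier of choroid plexus, at 0 to 13. Irf1, an interferon response factor, was at 6.55 to 29.5 normalized counts in the controls and 49.96 to 57.3 with Tβ4, without overlap. Its list of 13 had a median of 0.51 (0.39 without Tβ4 library 1). The groups did not overlap for 2 members higher and 1 lower, against 4.43% of all genes tested. The list's mean deviation was -0.58 to 0.60 in the controls and 0.36 to 1.02 with Tβ4, which overlapped.

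Stress and antioxidant genes lay lower with Tβ4, chiefly in library 2. Of 28 tested genes of the ATF4 stress response 4 were higher and 24 lower, with a median of -0.16 (-0.24 without Tβ4 library 1), and the mean deviation was -0.06, -0.62, 0.00 and -0.18 in Tβ4 libraries 1 to 4 against -0.19 to 0.27 in the controls. Slc7a11, the cystine and glutamate exchanger, was at 2480, 1907, 1074 and 1963 normalized counts in the controls and 1513, 1075, 935 and 1078 with Tβ4. Control library 3 lay among the Tβ4 libraries, and the log2 difference was -0.65 (95% interval -1.13 to -0.17), or -0.79 without Tβ4 library 1. Trib3, a pseudokinase induced by ATF4, was at 127 to 313 and 79.3 to 124, a log2 difference of -0.96 with groups that only just separated. Among NRF2 targets 15 of 20 were lower, with a median of -0.19 (-0.27 without Tβ4 library 1). Their mean deviation was 0.03, -0.74, -0.17 and -0.08 in Tβ4 libraries 1 to 4, against -0.20 to 0.28 in the controls. Srxn1, sulfiredoxin, was at 1069, 850, 622 and 965 and at 535, 193, 562 and 555, with library 2 far below the other 3. Its log2 difference was -1.02 (-1.67 to -0.37). Gclm, a subunit of the enzyme that starts glutathione synthesis, was at 915 to 1157 and 746 to 877, but its antisense neighbour Gm17494 holds more reads than Gclm itself. For both genes all Tβ4 libraries lay below the controls.

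Cholesterol synthesis genes were lower in 21 of 24, with a median of -0.09 (-0.14 without Tβ4 library 1). Their mean deviation was -0.54 in Tβ4 library 2 and -0.07 to 0.00 in the other Tβ4 libraries, which lay inside the control range of -0.18 to 0.19. Tm7sf2, a sterol reductase, was at 629 to 839 normalized counts in the controls and 361 to 550 with Tβ4, without overlap, although Vps51 shares 9.58% of its span and holds reads equal to 58.7% of its own. Glycolysis and hypoxia genes had a median of -0.04 (-0.10 without Tβ4 library 1), and Slc2a1, the glucose transporter, was at 490 to 747 and 422 to 536, with overlap, and Gm12868 holds reads equal to 33.3% of its own. Gpnmb, a lysosomal glycoprotein, was at 556, 495, 304 and 494 in the controls and 723, 157, 279 and 261 with Tβ4. It was highest of all in library 1 and below every control in the other 3, so that its log2 difference of -0.58 became -1.0 (95% interval -1.55 to -0.45) without that library. Ribosomal protein genes had a median of -0.08, and without Tβ4 library 1 all 44 were lower, at -0.20. Their mean deviation was -0.95 in Tβ4 library 2 and 0.00 to 0.32 in the other Tβ4 libraries, and Rpl11, for one, was at 607 to 822 normalized counts in the controls and 690, 371, 646 and 668 with Tβ4.

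Neuronal lists were slightly lower with Tβ4, except in library 2 for synaptic receptors and channels. Of 22 presynaptic vesicle genes 20 were lower, with a median of -0.17 (-0.15 without Tβ4 library 1). Stx1a, a SNARE protein of the release machinery, was at 1024, 1187, 1190 and 952 normalized counts in the controls and 718, 903, 807 and 848 with Tβ4. All Tβ4 libraries lay below the controls, with a log2 difference of -0.41 (95% interval -0.69 to -0.13). Of 21 genes of the excitatory postsynapse 18 were lower, with a median of -0.20 that was -0.07 without Tβ4 library 1, and a mean deviation of 0.31 in library 2 against -0.37 to -0.23 in the other 3. Camk2a, a kinase of synaptic plasticity, was at 1042 to 1428 and 839 to 987, without overlap. Voltage-gated channel genes had a median of -0.12 (-0.05 without Tβ4 library 1, where 7 of 18 were higher in place of 3) and a mean deviation of 0.46 in library 2 against -0.38 to -0.19 in the other 3. Cacna1b, the N-type calcium channel, showed this at 4704 to 5894 in the controls and 3167, 6757, 3638 and 3692 with Tβ4. Without Tβ4 library 2, limma called 6 of the 18 channel genes and 4 of the 21 postsynapse genes lower, against 1.01% of all genes. Those counts leave out the library that went the other way and add no separate support.

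Some genes were called lower by limma with Tβ4 library 2 left out and not with all 8 libraries, and the 3 described here were chosen after those values were seen. Kcnip4, a potassium channel partner spanning 1135 kb, was at 14410, 14736, 16639 and 11064 normalized counts in the controls and 6577, 30714, 5210 and 9674 with Tβ4. Library 2 lay above every control and the other 3 below every control. Kcnc2, a fast potassium channel, was at 2052 to 2825 in the controls and 1163, 3191, 1072 and 1156 with Tβ4, and Nxph1, a neurexin ligand, at 5213 to 6875 and 3346, 10762, 2304 and 3500. Without Tβ4 library 2 limma called all 3 lower, with adjusted p-values of 0.00616, 0.000239 and 0.0016. With all 8 libraries their differences were -0.49, -0.77 and -0.58 and none passed.

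Genes of inhibitory neurons were lower in 16 of 20, with a median of -0.22 (-0.17 without Tβ4 library 1). Lhx6, a transcription factor of cortical interneurons, was at 697 to 821 normalized counts in the controls and 454, 468, 716 and 502 with Tβ4, library 3 inside the control range. Maf, which acts with it, was at 879 to 1014 and 512 to 766, without overlap, although the antisense gene Gm15655 holds reads equal to 28.5% of its own. Of the axon growth and guidance genes 9 of 32 were higher, with a median of -0.12 that became -0.02, with 14 of 32 higher, without Tβ4 library 1. Nrp1, a semaphorin receptor, was higher without overlap at 1626 to 1748 and 1868 to 2438. Nuclear-retained long noncoding RNAs were lower in all 10 tested, with a median of -0.30 (9 of 10 and -0.23 without Tβ4 library 1). Tβ4 library 2 went the other way, with a mean deviation of 0.17 against -0.14 to 0.07 in the controls. Among them Meg3, an imprinted transcript, was at 19930 to 27442 and 12156, 24911, 12655 and 15800. Other lists lay close to the median of all genes, namely p53 targets (-0.04, and -0.09 without Tβ4 library 1), lysosome genes (-0.05 and -0.12), nuclear oxidative phosphorylation (-0.03 and -0.06) and cortical projection neuron factors (-0.09 and -0.05).

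**Figure D4:**
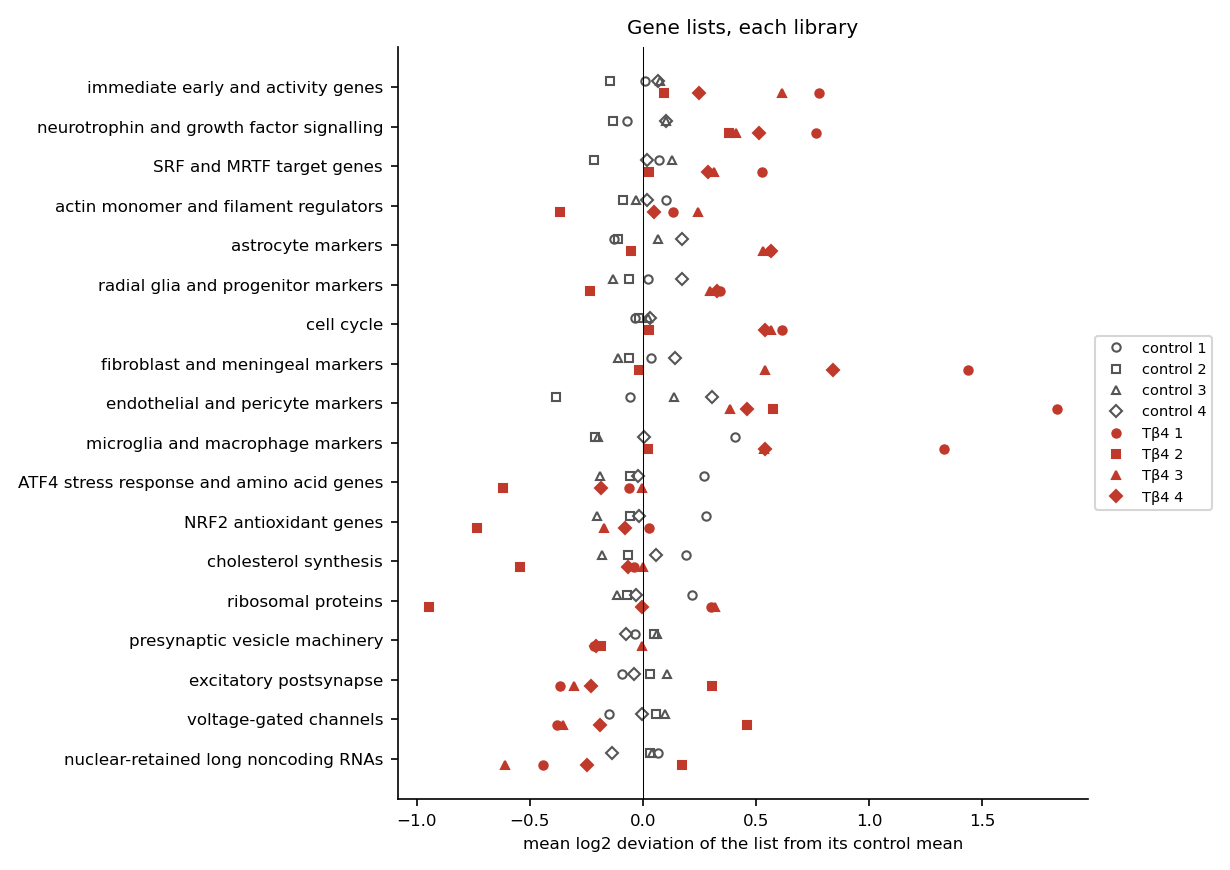
Mean log2 deviation of each gene list from its control mean, in each of the 4 control (open grey) and 4 Tβ4 (filled red) libraries; the shape gives the library number. Tβ4 library 2 (square) departs from the other Tβ4 libraries in several lists, such as ribosomal proteins (-0.95) and voltage-gated channels (0.46), and Tβ4 library 1 (circle) is highest in fibroblast (1.44), endothelial and pericyte (1.83) and microglia (1.33) markers.

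Tβ4 was then set directly against Tβ10, its closest relative among the peptides, and against NP24, in a fit of all 16 libraries. In contrast to the comparison with control, many genes differed. limma called 326 of 24232 genes (1.35%) between Tβ4 and Tβ10, 254 higher with Tβ4 (1.05%) and 72 lower (0.297%). It called 507 (2.09%) between Tβ4 and NP24, 400 higher (1.65%) and 107 lower (0.442%). Without Tβ4 library 1 the counts were 87 (0.366%; 0.299% higher, 0.0673% lower) and 104 (0.437%; 0.37% higher, 0.0673% lower), all of them among the first sets, and without Tβ4 library 2 they were 1052 and 1392. Tβ4 library 1 was the highest of the 16 libraries in 167 of the 326 and 257 of the 507. Scaling to library size shifted the median of all genes by -0.18 and -0.14 and turned the split to 165 higher and 449 lower against Tβ10, and to 269 and 363 against NP24.

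Matrix and mural cell genes led the genes higher with Tβ4. Col3a1 was at 467, 116, 266 and 218 normalized counts with Tβ4, at 1.71 to 20.0 with Tβ10 and at 3.48 to 16.7 with NP24. The difference from Tβ10 was 4.83 on the log2 scale (95% interval 3.60 to 6.06, limma adjusted p 0.000218) and that from NP24 was 4.68 (3.45 to 5.92, 0.000267). The controls, at 56.2 to 131, lay above every Tβ10 and NP24 library, and Tβ4 library 2 lay among them. Rgs5 was higher with Tβ4 by 3.95 and 3.42, and Ccn2 by 3.73 and 3.72. For both genes the controls, at 64.6 to 185 and 49.6 to 79.1, also lay above every Tβ10 and NP24 library. Their log2 differences of Tβ4 from control were 1.74 and 1.82, and limma called neither with all 8 libraries. Without Tβ4 library 1, Col3a1, Rgs5 and Ccn2 were still called against both peptides, with differences of 3.36 to 4.50. Of 12 tested fibroblast and meningeal markers 7 were called higher with Tβ4 than with each peptide, against 1.05% and 1.65% of all genes. Without Tβ4 library 1 the counts were 6 and 5, against 0.299% and 0.37% of all genes. Of 16 microglia and macrophage markers 8 were called higher than with each, and 1 and 4 without that library. Thus 7 and 4 of these microglia calls were lost with it. The list counts set peptide against peptide and do not show which group differed from control.

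Activity genes also differed between the peptides. Npas4 was at 886 to 1362 normalized counts with Tβ4, at 235 to 294 with Tβ10 and at 167 to 276 with NP24, differences of 2.09 (95% interval 1.72 to 2.46, limma adjusted p 2.15e-06) and 2.27 (1.90 to 2.64, 4.4e-07). No Tβ4 library overlapped either peptide, and the controls, at 531 to 894, lay above both peptides and reached just into the Tβ4 range. Of 22 immediate early and activity genes 9 were called higher than with Tβ10 and 6 than with NP24, against 1.05% and 1.65% of all genes. Without Tβ4 library 1 the counts were 6 and 4 (0.299% and 0.37% of all genes). Slc7a11 was at 935 to 1513 with Tβ4 against 372 to 543 and 347 to 403, a difference of 1.37 and 1.61, and Gpnmb differed by 3.06 and 2.56. For both genes the controls, at 1074 to 2480 for Slc7a11 and 304 to 556 for Gpnmb, lay above every Tβ10 and NP24 library, and the log2 differences of Tβ4 from control were -0.65 and -0.58. Txnip was at 182 to 354 with Tβ10 and 205 to 313 with NP24. Its difference of 0.82 from Tβ10 had a limma adjusted p of 0.06, and that of 0.81 from NP24 had 0.0492, which was lost without Tβ4 library 1 (0.144). Aqp4 was at 252 to 561 with Tβ10 and 330 to 458 with NP24, and its differences of -0.30 (-0.91 to 0.31) and -0.33 (-0.94 to 0.28) did not pass.

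With the values as deposited fewer genes were called lower with Tβ4 than higher, an order that scaling to library size reversed. Dclk3, a kinase related to doublecortin, was at 154, 98.8, 187 and 140 normalized counts with Tβ4, at 344 to 396 with Tβ10 and at 312 to 410 with NP24. It fell by 1.34 against Tβ10 (95% interval -1.71 to -0.97) and by 1.33 against NP24. Ajap1, an adherens junction protein, was at 408, 688, 449 and 431 with Tβ4 and at 965 to 1378 and 1103 to 1452, and fell by 1.26 and 1.39. In both genes the controls, at 215 to 267 for Dclk3 and 608 to 767 for Ajap1, lay below the other peptides' libraries as well. Sla and Tg were also called lower, but Sla lies wholly inside Tg, which holds reads equal to 105% of those of Sla, so they cannot be told apart. Maf was lower with Tβ4 by 0.65 and 0.95, and the call against Tβ10 was lost without Tβ4 library 1 (limma adjusted p 0.0675).

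**Figure D5:**
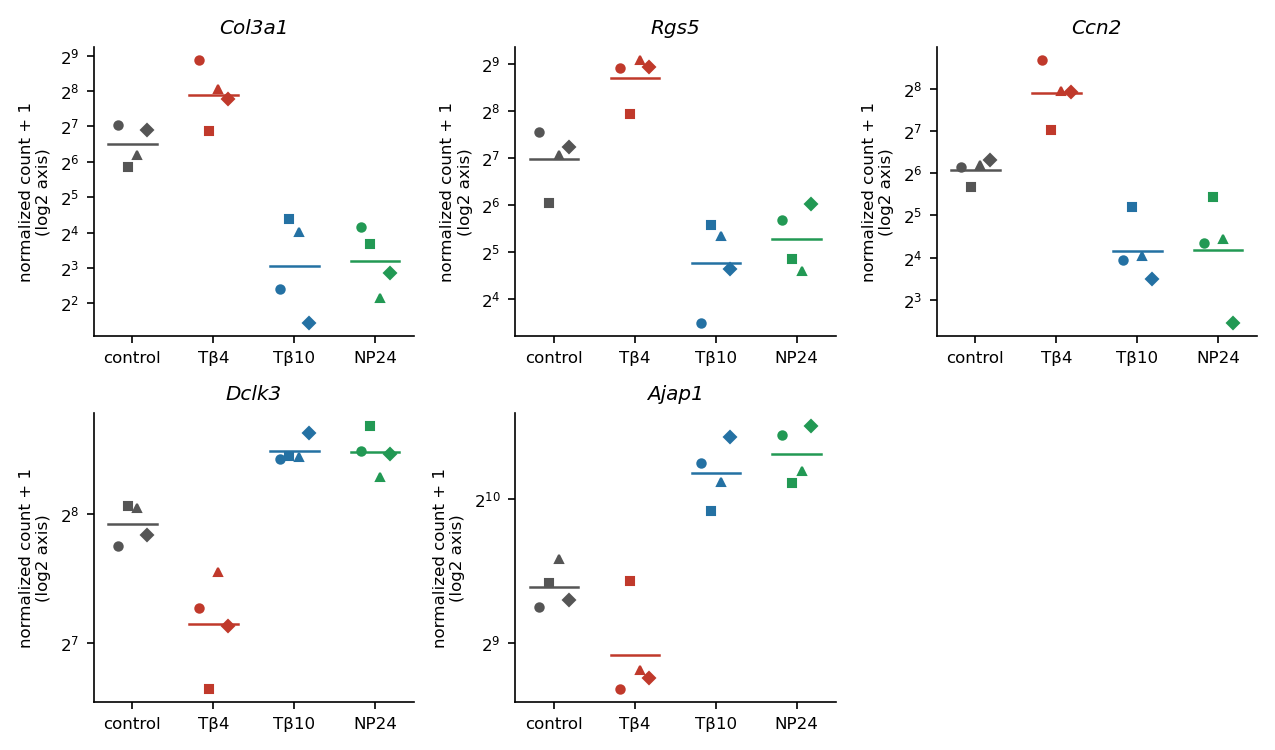
Normalized counts plus 1 on a log2 axis for 5 genes in the 4 libraries of each group; the shape gives the library number within its group and the line is the geometric mean of the plotted values. Col3a1, Rgs5 and Ccn2 are low with Tβ10 and NP24 and higher in control and Tβ4 libraries, while Dclk3 and Ajap1 show the opposite order, Ajap1 with Tβ4 library 2 (688) inside the control range.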

How the data were processed

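Total RNA from the cultures was extracted (RNeasy Micro Kit) and turned into libraries (SMARTer Stranded Total RNA-Seq Kit v2), per the labels' protocols. The submitters' processing notes name FastQC, HISAT, HISAT2, featureCounts, DESeq2 and the build GRCm38. The deposited values, a signal in whole reads divided by a size factor, are the authors' normalized counts, and whole reads were recovered from 100% of them at a tolerance of 0.01 reads. The authors' deposited table also holds their DESeq2 test score, log2 fold changes and p-values, per the file headers; the last 2 were used only where named. Of 45724 gene identifiers, 45045 matched GENCODE M21 with their version.

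Genes with at least 10 normalized counts in 4 libraries (3 without Tβ4 library 1) were tested with limma 3.58.1 on log2(value + 1). Adjusted p-values (Benjamini-Hochberg) under 0.05 were called. edgeR 4.0.16 and DESeq2 1.42.0 were run on the recovered reads in R 4.3.3. Direct comparisons of Tβ4 with Tβ10 and NP24 used all 16 libraries. Alternatives covered tool, scaling, pseudocount, filter, library weights, a mitochondrial rRNA covariate, the replicate number and each library left out; the fits of DESeq2 over 16 and 15 libraries and the scaling without mitochondrial rRNA were chosen after seeing the data. The scripts were tested on simulated data. Intervals are 95% intervals of the fitted difference.

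The members and the 33 gene lists were chosen with earlier results of these data known. Genes named are, by rule, up to 12 in each direction that passed, or else the 5 with the smallest p, with and without Tβ4 library 1, among genes with a mean of 50 or more; up to 4 members of each list by p without Tβ4 library 1; the 2 thymosin genes; up to 8 that set Tβ4 library 1 apart; and up to 6 in each direction against each other peptide. Promoter sequences are from RefSeq. Some genes that the rule names are not reported here.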

Additional observations from a re-analysis of the deposited data

Results flagged for a closer look

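In each group of 4 libraries, the gap between the highest or lowest library and its nearest neighbour was set against the group's range and compared with Dixon's 95% critical value. Of 220 groups examined, 23 exceeded it. For independent groups chosen without regard to their values, chance gives about 1 in 20. These groups do not meet that, since lists and named genes overlap and many genes were named by their values. Kcnc2 and Nxph1 were described because limma called them with Tβ4 library 2 left out, so their flags for that library were built in. Tβ4 library 2 was the library concerned in 12 and Tβ4 library 1 in 5, with 4 in the controls.

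Tβ4 library 1 stood apart in the number of olfactory and vomeronasal receptor genes detected (1226) and in their share of reads (0.0416%). It was also apart in Myl9 (102 normalized counts), Irf1 (57.3) and the endothelial and pericyte list (mean log2 deviation 1.83).

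Tβ4 library 2 stood apart, high, in Nr4a3 (7038 normalized counts), Cacna1b (6757), Ajap1 (688), Kcnc2 (3191) and Nxph1 (10762). It stood apart, low, in Srxn1 (193) and Rpl11 (371). Its mean log2 deviations were the low ones in the lists for cholesterol synthesis (-0.54), glycolysis and hypoxia (-0.36), astrocytes (-0.054), radial glia and progenitors (-0.24) and the cell cycle (0.025).

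Tβ4 library 3 stood apart in Daam2 (401 normalized counts) and in the presynaptic list (-0.0058). Among the controls, library 4 was high in Itgav (971) and Pdgfrb (262), library 3 low in Gclm (915) and library 2 high in Nrp1 (1748).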

How the results depend on the processing

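With all 8 libraries, limma's count of 0 became 82 with DESeq2, 163 with DESeq2 over 16 libraries, 179 with library weights, 2 with the spread of 16 libraries and 0 to 354 with single libraries left out. Without Tβ4 library 1 it became 4 with DESeq2, 18 with DESeq2 over 15 libraries, 7 with the mitochondrial rRNA covariate and 0 to 177 with a further library out; library weights gave 6715, a fit that did not converge (weight 63.8 on Tβ4 library 4). The other settings, the replicate block aside, gave 0.

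Library numbers did not pair the samples (same-number correlations -0.07 to 0.08; 2 pairs were each other's highest). The replicate block gave 2 calls with 8 libraries, 214 against Tβ10 and 341 against NP24.

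Against Tβ10, 326 calls became 184 with no filter on low values, 77 with the 8 libraries concerned, 614 with library size scaling and 87 to 1052 with single libraries left out. Against NP24, 507 became 109 with the 8 libraries concerned and 104 to 1392 with single libraries left out.

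Directions reversed for 3 genes, and no reversed value was called. Tmsb4x (0.10) was -0.21 with the mitochondrial rRNA covariate and -0.063 to 0.39 with single libraries left out; Tmsb10 (-0.18) was 0.16 without library 2. With Tβ4 library 1 out, Tmsb4x (-0.06) was 0.028 with edgeR, 0.030 with DESeq2, 0.026 with DESeq2 over 15 libraries, 0.017 with the replicate block, 0.0039 with library weights and -0.37 to 0.29 with a further library left out. Over the same exclusions Tmsb10 (-0.36) ran from -0.72 to 0.050 and Kcnip4 (-0.28) from -0.99 to 0.29. Kcnip4 was 0.089 with edgeR, 0.098 with DESeq2 and 0.092 with DESeq2 over 15 libraries. The cause was not tested.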
